A study of Mus musculus with 18 samples.

Results

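Colon RNA of mice that had drunk dextran sulfate sodium (DSS) was compared with colon RNA of untreated mice, gene by gene. DSS is a sulfated sugar polymer that damages the colonic epithelium when it is given in drinking water, and it is a common way to induce colitis in mice. Genes were taken into the comparison when at least 3 of the 6 Control and DSS libraries held at least 1 FPKM (a read density corrected for the length of the transcript and the size of the library). This rule kept 12780 of the 18349 genes in the table (69.6%). Of the genes kept, 250 met the minimum in exactly 3 libraries, with a median of 1.0 FPKM over the 6 libraries. A further 293 genes met it in exactly 2 and were left out, with a median of 0.80 FPKM.

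All animals were male C57BL/6 mice labelled as genotype WT. The Control group (n = 3) received water and a normal diet throughout. The DSS group (n = 3) drank 2.5% DSS for 7 days and was then gavaged daily with PBS, 200 µL per 10 g, for 5 weeks. The labels mention no gavage of Control mice and give no age. The comparison therefore holds DSS, the gavage and the time since DSS together, and these cannot be told apart. The entire colon was used, which mixes epithelium, stroma, muscle, nerve and leukocytes along its whole length. A further 12 libraries of the study, 4 in each of 3 groups, came from mice that drank DSS and were then gavaged with Lactobacillus plantarum (ZJ316, ZJ316-KO or ZJ316-COM). They entered the model only to estimate the spread of each gene, and their levels are given as a side-by-side description.

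DSS colitis begins with loss of the epithelial barrier. Bacteria then reach the lamina propria, leukocytes enter through activated vessels, and fibroblasts rebuild the matrix, while surviving crypts restore the epithelium over the following weeks. Colonocytes normally burn microbial butyrate in their mitochondria and carry a large set of enzymes that conjugate and hydrolyse foreign compounds. Goblet cells secrete the mucus layer that keeps bacteria off the surface. In RNA from whole tissue, fewer cells of a type and less RNA per cell cannot be told apart.

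With limma, 2183 of the 12780 genes differed between DSS and Control at an adjusted p under 0.05 (17.1%). Of these, 1485 were higher in DSS (11.6%) and 698 were lower (5.46%). The rule for taking in genes was not neutral between the directions. Of the 12780 genes, 117 lay under 1 FPKM in all Control libraries and met the minimum through DSS alone. Only 12 lay under 1 FPKM in all DSS libraries. Higher genes made up 68.0% of the calls, a share that was 47.3% after quantile normalization, 53.4% with TMM factors and 56.6% with array weights, and 77.8% in TPM and 83.7% with the 6 libraries alone. The shares of 11.6% and 5.46% are the background for every gene list that follows. "Rose" and "fell" are used for genes that passed this test. Differences are given as log2(FPKM + 1) in DSS minus Control ± SE, a scale that understates changes of genes near 1 FPKM. The median difference was 0.05 over all 12780 genes, 0.58 over the genes that rose and -0.39 over those that fell. A difference of at least 1 was reached by 262 of the genes that rose and 20 of those that fell. For 8914 genes (69.7%) the 95% confidence interval lay within 1.5-fold either way. The 3 DSS libraries lay entirely above the 3 Control libraries in 2440 genes (19.1%) and entirely below them in 1390 (10.9%).

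**Figure D1:**
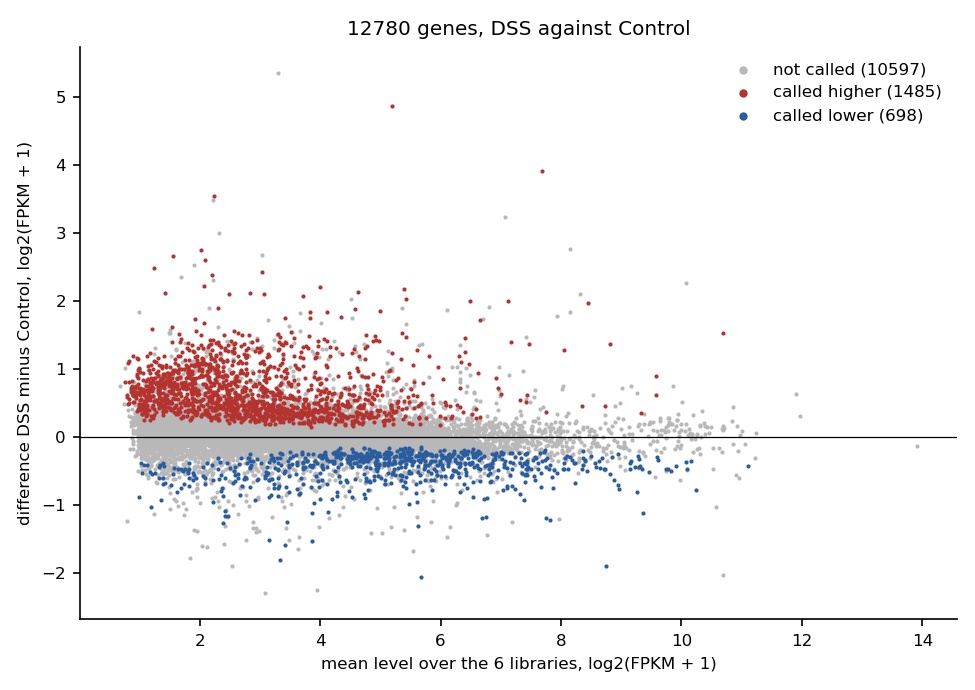
Difference between DSS and Control, in log2(FPKM + 1), against the mean level over the 6 libraries for each of 12780 genes. Red points are the 1485 genes that rose and blue points the 698 that fell. Genes that rose reach larger differences, and all but 20 of the genes that fell lie above -1.

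The libraries were not alike within groups, and several results rest on single ones. Values are FPKM, so the number of reads is unknown. FPKM totals of the 6 libraries were 518590 to 558590, and 16446 to 16805 genes lay above 0. Correlations across genes were 0.924 to 0.994 within a group and 0.909 to 0.978 between groups. Control 3 stood apart: it was the highest of the 6 libraries by at least 2-fold in 235 genes and the lowest by that margin in 374, against at most 19 and 22 in any other library. Its mean log2(FPKM + 1) of B cell markers was 0.48, against 3.40 to 4.10 in the other 5 libraries, and that of distal colon position genes was 0.67, against 3.0 to 4.94. Pancreatic acinar genes made up 6.83% of all FPKM in DSS 1 and 1.21% in DSS 3, and at most 0.0627% in the other 4. DSS 2 held markers of stratified squamous epithelium at a mean of 4.30, against at most 0.53 elsewhere, and DSS 1 held hepatocyte markers at 5.01, against at most 2.42. Colonic epithelium markers were high in all 6 libraries (8.07 to 9.34). Leaving out Control 3 left 942 genes that rose and 490 that fell, and 804 and 354 of those called with all libraries were among them. The counts were 2363 and 1225 without Control 1, 1112 and 350 without DSS 1, 784 and 433 without DSS 2, and 953 and 397 without DSS 3. The fit of the 6 libraries alone called 41 higher and 8 lower, with an unadjusted p under 0.05 in 2551 genes. With all 18 libraries 4200 genes had an unadjusted p under 0.05. The number of genes called in the same direction with each of the 6 libraries left out in turn was 845 (6.61%), of which 616 rose (4.82%) and 229 fell (1.79%). The labels do not tie libraries to single animals, so each p-value reflects variation among the libraries, which may be technical. The model takes 1 spread per gene over all 5 groups, so a p-value does not measure the spread of the Control libraries alone. Array weights, low for libraries that deviate, were 0.340 for Control 1, 2.625 for Control 2 and 0.138 for Control 3. For genes uneven among the Control libraries the p-values can be too small.

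**Figure D2:**
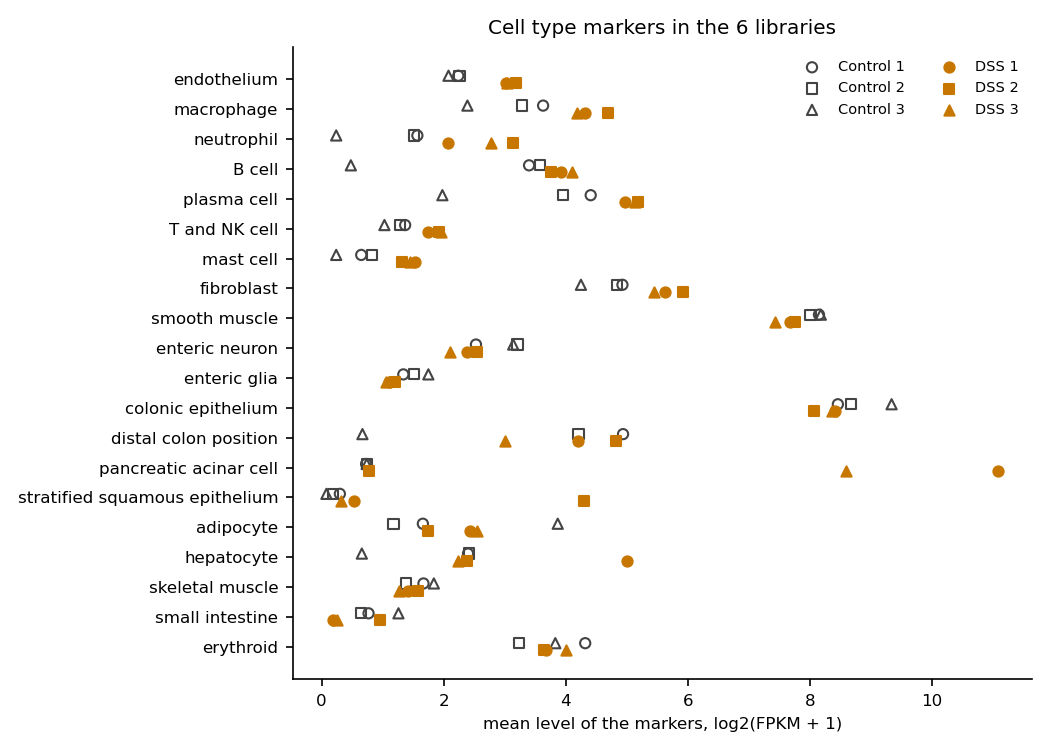
Mean log2(FPKM + 1) of fixed marker genes for 20 cell types or tissues in each library (open symbols Control, filled symbols DSS). Endothelium, macrophage, plasma cell and fibroblast markers are higher in all 3 DSS libraries than in any Control library, Control 3 is lowest for B cell and distal colon markers, and acinar markers are high in DSS 1 and DSS 3.

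Genes of blood vessels were higher in DSS throughout. All 17 measured genes of blood endothelium rose, with a median difference of 0.72, and in all 17 the DSS libraries lay above the Control libraries. Pecam1, the junctional adhesion molecule CD31, measured 9.61, 10.8 and 7.52 FPKM in the Control libraries 1 to 3 and 19.8, 23.5 and 22.7 FPKM in DSS 1 to 3. Vwf, which encodes von Willebrand factor, lay at 1.62, 1.51 and 1.44 FPKM in Control and at 3.40, 4.10 and 3.40 FPKM in DSS (0.87 ± 0.11, adjusted p = 7.07e-04). Tek, the angiopoietin receptor TIE2, rose by 0.77 ± 0.10 (adjusted p = 7.07e-04), and Flt1, a VEGF receptor, by 0.65 ± 0.08 (adjusted p = 7.07e-04). The fenestral diaphragm gene Plvap, abundant in mucosal capillaries, rose by 0.56 ± 0.10, from 20.7, 24.1 and 19.1 FPKM to 30.3, 30.6 and 34.6 FPKM. The smallest difference of the list was that of Aplnr, the apelin receptor gene (0.49 ± 0.14, adjusted p = 0.0259). The list gave 15 to 17 genes that rose when any of the 6 libraries was left out, and 17 without Control 3.

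Lymphatic vessels showed the same direction. Of 7 lymphatic endothelial genes 6 rose, with a median of 1.0, and the DSS libraries lay above the Control libraries in those 6. Lyve1, the hyaluronan receptor of lymphatic capillaries (gene ID 114332, chromosome 7, 110850607 to 110862953, GRCm38.p6), measured 6.08, 6.58 and 7.19 FPKM in Control and 14.0, 15 and 13.7 FPKM in DSS (1.0 ± 0.15, adjusted p = 0.00128). Each group is tight for this gene, Control 3 included. Mmrn1 rose by 1.23 ± 0.20, Pdpn by 1.09 ± 0.16, and Flt4, the receptor for the lymphatic growth factor VEGF-C, by 0.87 ± 0.15. The chemokine gene Ccl21a, whose product guides dendritic cells and T cells into lymphatics and lymphoid tissue, stood at 55.1, 76.2 and 38.8 FPKM in Control and 169, 209 and 168 FPKM in DSS (1.71 ± 0.27, adjusted p = 0.00178). Ccl21a has near-identical copies, so its single value is uncertain. Prox1, the transcription factor that sets lymphatic identity, did not pass: it lay at 0.47, 0.50 and 1.32 FPKM in Control and 0.98, 1.44 and 1.03 FPKM in DSS (adjusted p = 0.160), and it passed without Control 3. Pericyte genes did not move as a group. Of 6 measured, Pdgfrb rose (0.69 ± 0.15, adjusted p = 0.00667) and the median was 0.01. Rgs5, the most abundant of them, measured 25.9, 38.2 and 105 FPKM in Control and 33.5, 27.6 and 31.2 FPKM in DSS.

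The molecules with which leukocytes leave the blood were also higher. Of 14 homing and adhesion genes 12 rose (median 1.2), and in 13 the groups did not overlap. On the vessel side, Madcam1, the mucosal addressin that binds gut-homing lymphocytes (gene ID 17123, chromosome 10, 79664559 to 79668542), measured 2.65, 2.38 and 0.74 FPKM in Control and 5.10, 5.77 and 7.14 FPKM in DSS (1.32 ± 0.26, adjusted p = 0.00484). Vcam1 rose by 1.4 ± 0.29 and Selp, which encodes P-selectin, by 1.09 ± 0.19 from at most 0.30 FPKM in Control. On the leukocyte side, Itga4 and Itgb7 encode the 2 chains of the integrin that binds MAdCAM-1. Itga4 rose by 1.06 ± 0.23 (adjusted p = 0.00778) and Itgb7 by 1.12 ± 0.22 (adjusted p = 0.00484). Selplg, the ligand of P-selectin, rose by 1.3 ± 0.25. Control 3 was the lowest library for Madcam1, Vcam1, Itga4 and Itgb7, and 10 of the 14 genes rose without it.

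Extracellular matrix genes were higher in DSS. Over 6 matrix lists with 87 measured genes, 60 rose and 1 fell, and 84 had a difference above 0 (median 0.65). Without DSS 2, 37 of the 87 rose, and without Control 3, 46. In the basement membrane list 14 of 18 rose. Col18a1 (gene ID 12822, chromosome 10, 77052178 to 77166530), whose product releases endostatin, measured 5.92, 5.34 and 4.80 FPKM in Control and 13.0, 15.9 and 14.2 FPKM in DSS (1.28 ± 0.18, adjusted p = 9.72e-04). The groups are far apart for this gene, and Control 3 lies near the other Control libraries. The laminin chain genes Lamb1 and Lama4 rose by 1.06 ± 0.15 and 0.87 ± 0.13, and Col4a1 of the basement membrane network by 0.82 ± 0.14. Agrn, the agrin gene, was the member that fell (-0.32 ± 0.11, adjusted p = 0.0491), a call that was lost in 5 of the 6 fits with a library left out.

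Fibrillar collagens and the enzymes that cross-link them were higher too. Of 7 fibrillar collagen genes 5 rose (median 0.87). Col1a1 stood at 24.2, 24.2 and 14.5 FPKM in Control and 36.1, 49.8 and 34.3 FPKM in DSS (0.92 ± 0.22, adjusted p = 0.0120). Control 3 is the lowest library for Col1a1, whose call was lost without it or without DSS 2. Without Control 3 or without DSS 2, 3 of the 7 genes rose. Lox, the lysyl oxidase that starts collagen cross-links, measured 1.41, 1.4 and 0.78 FPKM in Control and 3.84, 6.19 and 4.17 FPKM in DSS (1.38 ± 0.23, adjusted p = 0.00238). In the list of collagen processing 10 of 14 rose, and 5 did so without Control 3 and 5 without DSS 2. Among 22 glycoproteins and proteoglycans of the matrix 14 rose, and 10 without Control 3 and 8 without DSS 2. The small proteoglycan gene Bgn rose by 1.45 ± 0.21, from 67.1, 54.8 and 34.2 FPKM to 118, 160 and 140 FPKM. Postn, which encodes periostin and is known from scarring, overlapped between the groups (90.1, 58.7 and 32.3 against 75.4, 93.2 and 69.9 FPKM, adjusted p = 0.242).

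Matrix proteases rose in 10 of 16 measured genes (median 0.77), and in 6 without DSS 2. Mmp10, stromelysin-2, measured 0.16, 0.50 and 0.21 FPKM in Control and 3.64, 4.92 and 5.25 FPKM in DSS (2.12 ± 0.35, adjusted p = 0.00213). Mmp3, stromelysin-1, lay at 0.89, 0.72 and 0.41 FPKM in Control and 3.45, 4.6 and 4.35 FPKM in DSS. Mmp13, a collagenase, lay at 1.03, 1.18 and 0.75 FPKM in Control and 3.53, 4.68 and 4.43 FPKM in DSS. In these 3 genes every DSS library exceeded every Control library by more than 2-fold. Mmp2, a gelatinase of stromal cells at higher level, rose by 1.16 ± 0.19 from 9.51, 10.9 and 7.14 FPKM to 20.4, 25.2 and 19.3 FPKM. The inhibitor gene Timp1 rose by 1.09 ± 0.26 (adjusted p = 0.0120). Mmp12 and Mmp7 did not pass, at 1.01 ± 0.46 and 0.80 ± 0.41.

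Several of these protease genes lie in 1 cluster on chromosome 9 and carry the same short motif near their start. The AP-1 site, the letters TGACTCA on either strand (TGAGTCA when read on the other), was searched in the 250 bases before the annotated start in RefSeq promoters of GRCm38.p6. It was present in 5 of the 14 list members with a promoter (35.7%), in 5.16% of all 27025 genes with a promoter and in 4.21% of the 10226 genes of this comparison with one. The 5 are shown because 3 of them, Mmp3, Mmp10 and Mmp13, rose and the other two, Mmp7 and Mmp12, did not pass. Each stretch reads along the gene's strand, here the plus strand, with up to 40 bases on each side and the motif in capitals. The positions are chr9:7445736-7445821 for Mmp3, chr9:7502239-7502325 for Mmp10, chr9:7272439-7272513 for Mmp13, chr9:7691987-7692073 for Mmp7 and chr9:7347290-7347373 for Mmp12. The motif begins 46, 63, 35, 63 and 44 bases before the start in this order. A match describes these letters and is not evidence of binding.
Mmp3: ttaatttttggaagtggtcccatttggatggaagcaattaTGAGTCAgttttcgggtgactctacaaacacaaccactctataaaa
Mmp10: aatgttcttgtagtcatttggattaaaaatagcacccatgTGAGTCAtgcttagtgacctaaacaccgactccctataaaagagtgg
Mmp13: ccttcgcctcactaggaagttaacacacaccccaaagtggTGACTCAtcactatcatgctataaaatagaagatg
Mmp7: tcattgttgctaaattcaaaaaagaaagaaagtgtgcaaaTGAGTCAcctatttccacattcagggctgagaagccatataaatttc
Mmp12: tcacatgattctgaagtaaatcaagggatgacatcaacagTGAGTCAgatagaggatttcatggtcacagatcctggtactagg

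Fibroblast genes include the signals that hold the crypt base in place. Of 15 genes for fibroblast types and niche factors 11 rose (median 0.68), with 6 without DSS 2 and 7 without DSS 1. Pi16, a marker of adventitial fibroblasts (gene ID 74116, chromosome 17, 29318796 to 29328903), was below 0.5 FPKM in every Control library (0.39, 0.22 and 0.39) and at 3.79, 3.53 and 1.96 FPKM in DSS (1.59 ± 0.31, adjusted p = 0.00476). Cd34, which marks the same stromal layer and also endothelium, rose by 1.05 ± 0.17 from 6.68, 6.66 and 4.73 FPKM to 13.4, 16.5 and 11 FPKM. The BMP antagonist gene Grem1 rose by 1.31 ± 0.34, with 11.9, 12.3 and 3.02 FPKM in Control and 20.9, 21.2 and 20.8 FPKM in DSS. Without Control 3 the difference of Grem1 was 0.74, and its call was lost without DSS 2. Rspo3, a Wnt amplifier for crypt stem cells, rose by 0.71 ± 0.20 (adjusted p = 0.0225), a call lost in 3 of the 6 fits with a library left out. In the crypt itself, 0 of 15 stem cell and Wnt target genes and 0 of 19 cell cycle genes passed, with medians of 0.02 and 0.26. Without Control 1, 11 cell cycle genes rose.

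**Figure D3:**
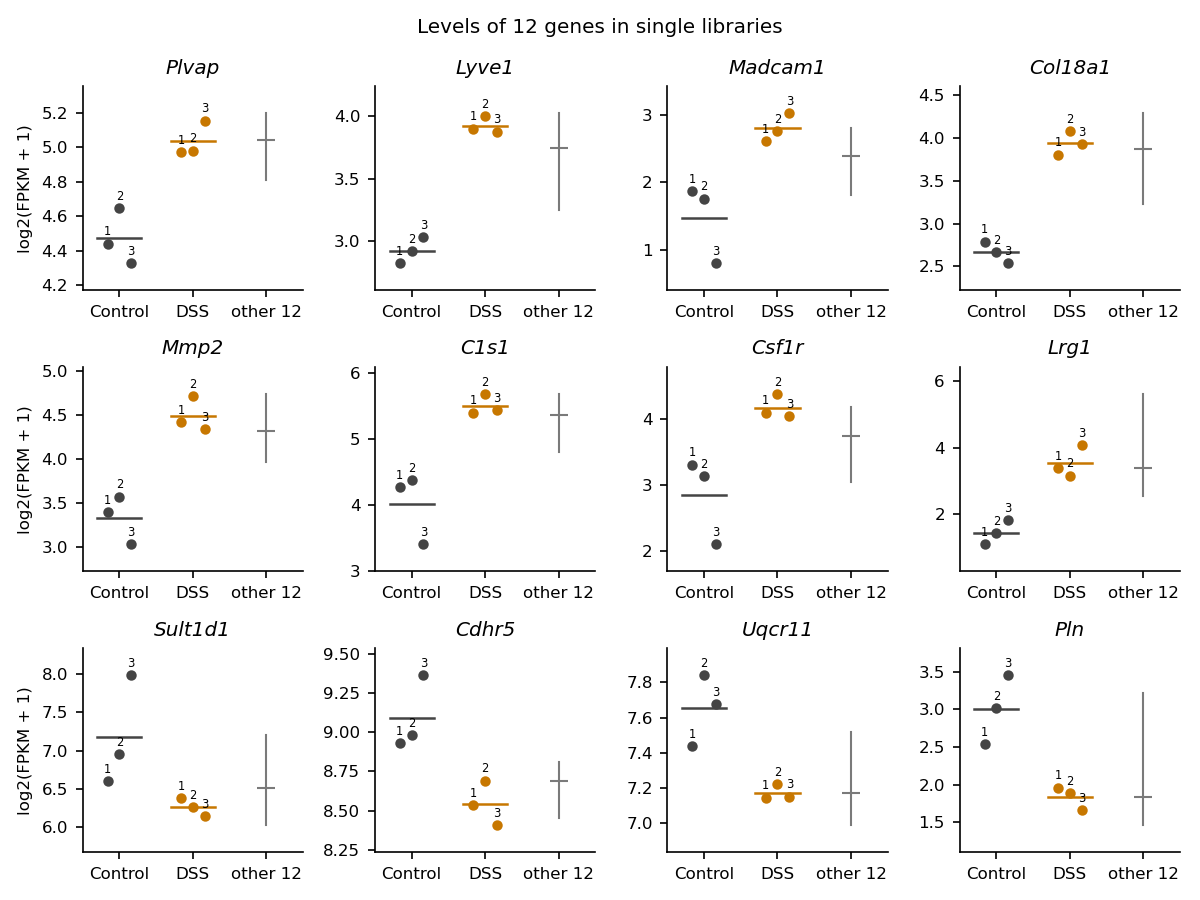
Levels of 12 genes, each in a panel with its own axis in log2(FPKM + 1). Numbered points are single libraries, short bars group means, and the grey line gives the lowest, median and highest of the 12 libraries from mice gavaged with bacteria. In all 12 panels the Control and DSS libraries do not overlap, and Control 3 is far from Control 1 and 2 for Madcam1, C1s1, Csf1r and Sult1d1.

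Complement genes were higher in DSS. Of 16 measured 11 rose (median 1.15), and 9 to 12 did so with a library left out. C3, the protein on which all complement pathways converge, measured 17.8, 40.9 and 11.3 FPKM in Control and 89.7, 118 and 60.1 FPKM in DSS (2.03 ± 0.47, adjusted p = 0.00985). The classical pathway protease gene C1s1 (gene ID 50908, chromosome 6, 124530344 to 124542392) lay at 18.3, 19.7 and 9.54 FPKM in Control and 41.1, 50.3 and 42.3 FPKM in DSS (1.49 ± 0.21, adjusted p = 0.00103). The groups are apart in both genes, more widely relative to their spread in C1s1. C4b rose by 1.74 ± 0.31. Serping1, the gene of the C1 inhibitor, rose by 1.02 ± 0.20. The 3 chains of C1q are made mainly by macrophages, and C1qa, C1qb and C1qc rose by 1.27 ± 0.31, 1.46 ± 0.32 and 1.48 ± 0.35. Without Control 3 these differences were 0.80, 0.96 and 0.89, and the call of C1qa was lost without DSS 2.

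Among monocyte and macrophage genes 13 of 17 rose (median 1.21), 10 without Control 3 and 9 without DSS 2. Csf1r, the receptor that maintains macrophages, measured 8.90, 7.77 and 3.27 FPKM in Control and 16.2, 19.9 and 15.5 FPKM in DSS (1.33 ± 0.26, adjusted p = 0.00430). Its ligand gene Csf1 rose by 0.89 ± 0.17. The recruitment receptor gene Ccr2 of monocytes rose by 1.18 ± 0.20, from 1.2, 0.65 and 0.50 FPKM to 2.61, 3.90 and 2.58 FPKM. Lyz2, lysozyme of myeloid cells, reached 279, 276 and 291 FPKM in DSS against 162, 182 and 43.2 FPKM in Control (adjusted p = 0.0252), and its call was lost in 4 of the 6 fits with a library left out. Of 15 neutrophil genes with values, only 5 met the minimum level. Of these, 4 rose (S100a8, S100a9, Csf3r and Itgam), and 2 did so without DSS 2 or without DSS 3. S100a8, S100a9 and Csf3r lay under 1 FPKM in all Control libraries and met the minimum through DSS alone. The share of neutrophil genes that rose is therefore partly set by the rule for taking in genes. Csf3r, the receptor for the neutrophil growth factor G-CSF, lay at 0.62, 0.57 and 0.18 FPKM in Control and 1.78, 3.21 and 2.04 FPKM in DSS. Ly6g, used as a neutrophil surface marker, was abundant in Control 1 and 2, where S100a8 stood at 0.00 and S100a9 at most at 0.37 FPKM. Ly6g levels were 344, 234 and 1.29 FPKM in Control and 178, 214 and 175 FPKM in DSS, and it did not pass (adjusted p = 0.336). Control 3 is far below the other 5 libraries for this gene, and the sign of the difference changed without Control 3 and with array weights.

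Chemokines rose in 8 of 22 measured genes and chemokine receptors in 11 of 14, with medians of 0.95 and 0.92. Without Control 3 or DSS 2, 6 in each list rose, and 7 receptor genes did so without DSS 3. The largest difference of the first list was that of Cxcl5, a neutrophil attractant gene (2.60), for which DSS 2 exceeded every other library by at least 2-fold. Cxcl12, which retains stem and plasma cells in their niches, stood at 16.8, 15.6 and 10.8 FPKM in Control and 31.2, 41.1 and 36.3 FPKM in DSS (1.29 ± 0.19, adjusted p = 0.00124). The eosinophil attractant gene Ccl11 rose by 1.3 ± 0.19, the monocyte attractant gene Ccl8 by 1.75 ± 0.34 and Ccl22, made by dendritic cells, by 1.51 ± 0.24. Ccr7, the receptor for CCL21, measured 0.91, 1.78 and 0.11 FPKM in Control and 3.47, 3.73 and 4.0 FPKM in DSS (1.39 ± 0.29, adjusted p = 0.00583). Both genes of this receptor and ligand pair rose. Few cytokine genes were expressed at all: 7 of 25 listed met the minimum level, and Il1b, Csf1 and Tgfb1 rose. Il1b lay at 0.86, 2.19 and 0.52 FPKM in Control and 5.65, 8.91 and 3.97 FPKM in DSS, while Tnf stood at 2.13, 2.82 and 1.27 against 3.33, 4.50 and 4.57 FPKM and did not pass (adjusted p = 0.0737).

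Lymphocyte genes were divided. Of 13 T and NK cell genes 6 rose (median 0.52). Cd4 measured 2.93, 2.91 and 0.76 FPKM in Control and 5.96, 7.88 and 6.71 FPKM in DSS (1.38 ± 0.31, adjusted p = 0.00911). The costimulatory receptor gene Icos rose by 0.98 ± 0.16, and the checkpoint gene Ctla4, high in regulatory T cells, rose by 0.80 ± 0.18 from at most 0.47 FPKM. Plasma cell genes rose in 7 of 10 (median 1.32), 4 without Control 3, 3 without DSS 3 and 2 without DSS 2. Jchain, which joins IgA dimers, stood at 413, 306 and 42.9 FPKM in Control and 620, 730 and 733 FPKM in DSS (1.97 ± 0.58, adjusted p = 0.0304). Its call was kept in 2 of the 6 fits with a library left out, and without Control 3 the difference was 0.96. B cell genes showed how much rests on Control 3. Their median difference was 1.21, yet 1 of 12, Bank1, passed. Bank1, a scaffold of B cell receptor signalling, measured 3.06, 3.12 and 0.30 FPKM in Control and 5.40, 4.38 and 5.94 FPKM in DSS. Without Control 3 the median was 0.46 and 0 of 12 passed, and without Control 1 or Control 2 8 passed. Without any 1 of the DSS libraries 0 passed. For MHC class II, H2-Eb1 was the 1 gene of 11 that rose. Without Control 1 or Control 2 6 of the 11 rose, and without any of the other 4 libraries 0 did.

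**Figure D4:**
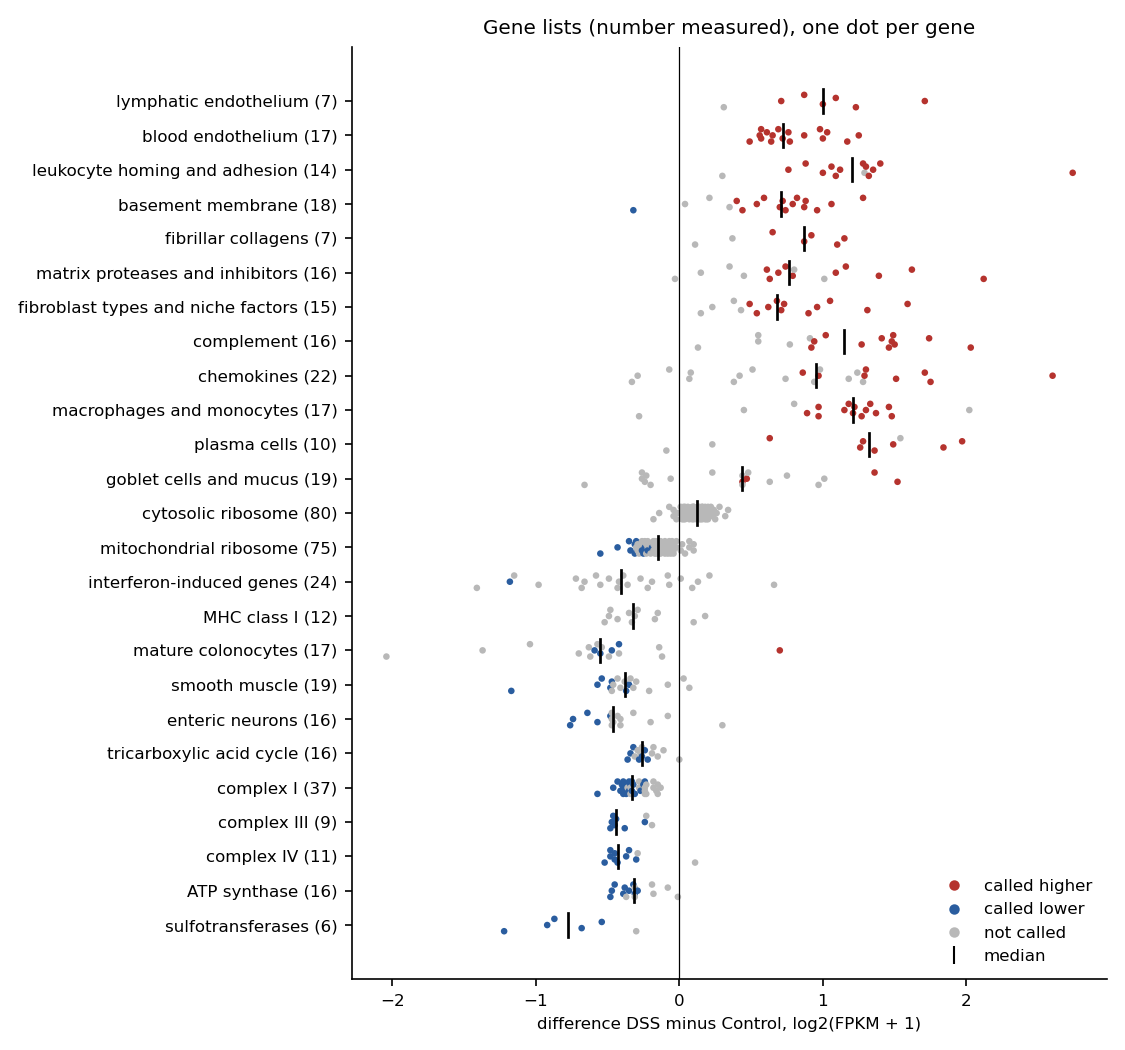
Differences between DSS and Control, in log2(FPKM + 1), for the genes of 25 lists. Each dot is a gene, red or blue where it rose or fell, and the black bar is the list median. Vessel, matrix, complement and macrophage lists lie to the right of 0, and respiratory chain, sulfotransferase, muscle and nerve lists lie to the left.

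The epithelium gave a mixed picture. In the mucus list 4 of 19 goblet cell genes rose (Fcgbp, Clca1, Bcas1 and C1galt1, median 0.44), with 7 without Control 1 and 2 without DSS 3. Fcgbp, a mucus protein that cross-links to the MUC2 network (gene ID 215384, chromosome 7, 28071236 to 28120864), measured 365, 382 and 158 FPKM in Control and 748, 670 and 744 FPKM in DSS (1.36 ± 0.25, adjusted p = 0.00365). Clca1, a secreted protease of the mucus layer, rose by 1.52 ± 0.33, from 1374, 1399 and 484 FPKM to 2661, 2518 and 3253 FPKM, with a difference of 1.01 without Control 3. Its neighbours in the same family, Clca3b and Clca4b, rose by 1.99 ± 0.30 and 4.86 ± 0.62, although close paralogs make the split between them uncertain. Muc2 itself, the gel-forming mucin, lay at 348, 510 and 2401 FPKM in Control and 903, 465 and 900 FPKM in DSS (-0.06 ± 0.57, adjusted p = 0.954). The sign for Muc2 changed with array weights, with quantile normalization and when Control 3 or DSS 2 was left out. Zg16 and Tff3, 2 other abundant goblet cell products, did not pass (0.63 ± 0.25 and 0.44 ± 0.21).

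Epithelial defence genes rose in 6 of 17 (median 0.71), in 3 without DSS 1 and in 1 without DSS 3. Lcn2, the iron-scavenging lipocalin used as a marker of intestinal inflammation, measured 0.65, 1.73 and 1.48 FPKM in Control and 4.75, 5.96 and 5.99 FPKM in DSS (1.55 ± 0.32, adjusted p = 0.00583). Lrg1, an acute-phase glycoprotein gene, rose by 2.10 ± 0.54, and Nos2, inducible nitric oxide synthase, by 2.11 ± 0.58. Without DSS 3 the calls of Lrg1, Nos2 and Lbp were lost. The lipopolysaccharide binding protein gene Lbp lay at 1.55, 1.25 and 1.25 FPKM in Control and 6.59, 5.03 and 8.03 FPKM in DSS. Ang4 shows why single libraries matter: its Control levels were 4.70, 637 and 40.1 FPKM, its DSS levels 995, 792 and 639 FPKM, and its call held in 1 of the 6 fits with a library left out. In retinoid metabolism 3 of 11 genes rose. Dhrs9, which oxidises retinol, measured 2.22, 6.35 and 10.1 FPKM in Control and 26.4, 19.9 and 32.8 FPKM in DSS (2.07 ± 0.40, adjusted p = 0.00420). Aldh1a3, which makes retinoic acid, rose by 2.43 ± 0.57 and was far higher in DSS 2 (45.5 FPKM) than in DSS 1 and 3 (12.1 and 10.3 FPKM). DSS 2 is also the library with squamous epithelium markers. Without DSS 2 alone the difference of Aldh1a3 was 1.78 and the call was narrowly kept (limma, adjusted p = 0.0497). Its call held in all 6 fits with a library left out. Without all libraries rich in squamous markers, DSS 2 among them, the difference was also 1.78 and the call was lost. Khdc1a, a gene of the KH domain family, stood at 0.64, 0.61 and 0.00 FPKM in Control and 11, 17.3 and 18 FPKM in DSS (3.54 ± 0.47, adjusted p = 7.07e-04).

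Genes of mature absorptive colonocytes tended to be lower: 4 of 17 fell (Cdhr5, Vil1, Cdhr2 and Slc9a2), 1 rose (Ms4a12), and 16 had a difference below 0 (median -0.55). Without Control 1, 9 fell, and without DSS 2, 2 did. Ms4a12 and Slc9a2 kept their calls in 1 of the 6 fits with a library left out, and Cdhr2 in 4. Cdhr5, a cadherin that links microvilli of the brush border, measured 487, 504 and 658 FPKM in Control and 370, 412 and 338 FPKM in DSS (-0.55 ± 0.10, adjusted p = 0.00350). Vil1, the actin bundler villin, fell by 0.42 ± 0.09 on the log2 scale, and Cdhr2, the partner of Cdhr5, by 0.47 ± 0.12. Other abundant colonocyte genes did not pass and varied widely among the Control libraries. Car1, a carbonic anhydrase, stood at 2055, 1163 and 15636 FPKM in Control and 950, 782 and 716 FPKM in DSS (adjusted p = 0.0604). The chloride and bicarbonate exchanger gene Slc26a3 stood at 615, 648 and 137 FPKM in Control and 306, 232 and 324 FPKM in DSS (adjusted p = 0.554). Control 3 is the highest library for Car1 and the lowest for Slc26a3, and without it Slc26a3 fell. None of 18 electrolyte and water transport genes passed in limma, where 2 rose without Control 1 and 2 fell without Control 3. Selenbp1, a selenium-binding methanethiol oxidase of mature colonocytes (gene ID 20341, chromosome 3, 94933083 to 94944758), fell by 1.12 ± 0.16, from 856, 925 and 1134 FPKM to 445, 452 and 433 FPKM. Its paralog Selenbp2 fell by 0.98 ± 0.18.

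Among enzymes that conjugate, oxidise or hydrolyse foreign compounds, the share that fell differed between families. Sulfotransferases, which add sulfate to phenols and steroids, fell in 5 of 6 genes (median -0.77), in 3 without Control 3 and in 2 without DSS 2 or DSS 3. Sult1d1, whose call was lost without Control 3, DSS 2 or DSS 3, measured 96.1, 123 and 253 FPKM in Control and 82.5, 75.7 and 69.7 FPKM in DSS (-0.92 ± 0.26, adjusted p = 0.0262). Sult1a1 (gene ID 20887, chromosome 7, 126672865 to 126690443) stood at 279, 315 and 458 FPKM in Control and 144, 140 and 156 FPKM in DSS (-1.22 ± 0.22, adjusted p = 0.00300). In both genes Control 3 is the highest library and the DSS libraries are close together. Carboxylesterases fell in 3 of 9 (Ces2a, Ces2c and Ces1e, median -1.04), with 6 without Control 1 and 2 without Control 3, DSS 1, DSS 2 or DSS 3. Without Control 3 the carboxylesterase median was -0.14. Glutathione transferases fell in 6 of 22, with 3 without Control 3 or DSS 1 and 2 without DSS 2. Cytochrome P450 genes fell in 5 of 27, with 2 without DSS 1 or DSS 2, and Cyp4f18 rose. The P450 median was -0.06, and 12 of the 27 genes had a difference above 0. The microsomal transferase gene Mgst3 fell by 0.51 ± 0.11, from 951, 1184 and 1132 FPKM to 793, 743 and 754 FPKM. Cyp2d22 fell by 0.74 ± 0.14 with Control levels of 17.8, 17.4 and 17.6 FPKM and DSS levels of 10.2, 11.1 and 9.09 FPKM. UDP-glucuronosyltransferases had the lowest median, -1.18 (-0.52 without Control 3), but 1 of 7, Ugt2b34, fell. Without Control 1, 5 did so, without Control 2, 4, and without Control 3, DSS 1 or DSS 2, 0. Outside these families, Hpgd, which inactivates prostaglandins, fell by 0.84 ± 0.17, from 169, 203 and 284 FPKM to 122, 122 and 112 FPKM. It was the 1 of 17 prostaglandin and leukotriene genes that fell, while 3 rose (median 0.23), and 1 rose without DSS 1 or DSS 2. Paralogs in these families share sequence, so values of single members are uncertain.

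The respiratory chain was lower in DSS as a whole, by a small and even amount. Of 77 measured nuclear genes for complexes I to IV and ATP synthase 48 fell and 0 rose, and 76 had a difference below 0 (median -0.34). The exception was Cox7a2l, a supercomplex assembly factor (0.11 ± 0.12, adjusted p = 0.572), whose sign changed with array weights. Atp5g2, at -0.01 ± 0.07, changed sign after quantile normalization, rescaling to TPM and removal of a length and GC trend. The DSS libraries lay below all Control libraries in 60 of the 77 genes. By complex, 21 of 37 genes of complex I fell, 2 of 4 of complex II, 7 of 9 of complex III, 9 of 11 of complex IV and 9 of 16 of ATP synthase. Uqcr11, a subunit of complex III, measured 172, 228 and 204 FPKM in Control and 141, 148 and 141 FPKM in DSS (-0.48 ± 0.09, adjusted p = 0.00353). Cox4i1 of complex IV stood at 667, 908 and 1001 FPKM in Control and 581, 594 and 592 FPKM in DSS (-0.52 ± 0.11, adjusted p = 0.00573). Atp5h of ATP synthase stood at 623, 680 and 706 FPKM in Control and 482, 461 and 506 FPKM in DSS (-0.47 ± 0.07, adjusted p = 0.00124). In each of these 3 genes the DSS libraries differ by less than the gap to the lowest Control library. Mean log2(FPKM + 1) over the 77 genes was 7.60, 7.83 and 7.74 in Control and 7.37, 7.36 and 7.47 in DSS. With a library left out, 29 (without DSS 2), 30 (without Control 2), 32 (without DSS 1) and up to 56 (without Control 1) of the 77 fell.

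Upstream of the chain, 7 of 16 genes of the tricarboxylic acid cycle fell (median -0.26). Without DSS 1 or DSS 2, 0 of the 16 fell, and without Control 3, 2 did. Fatty acid oxidation and ketogenesis genes fell in 5 of 19 (median -0.39), in 13 without Control 1, 3 without DSS 1 or DSS 2 and 2 without Control 3. The 5 include Bdh1, which interconverts ketone bodies (-0.47 ± 0.10, adjusted p = 0.00643), and Echs1 (-0.35 ± 0.06, adjusted p = 0.00340). In the list for glycolysis and hypoxia 3 of 22 fell, Aldoa by 0.34 ± 0.07, Ldha by 0.33 ± 0.10 and Vegfa by 0.42 ± 0.13. Aldoa kept its call in all 6 fits with a library left out, Ldha in 3 and Vegfa in 1, and 5 genes of the list fell without Control 1 or Control 3. Mitochondrial ribosomal proteins fell in 13 of 75 (median -0.15), in 21 without Control 1, 6 without Control 2 and 3 without DSS 1 or DSS 2, with Mrps36 at -0.55 ± 0.10 and Mrpl2 at -0.35 ± 0.05. Cytosolic ribosomal proteins gave 0 of 80 in either direction (median 0.12), and for 78 of them the interval lay within 1.5-fold. Without Control 2, 17 of them rose, and with array weights 16 fell. Markers of colonic epithelium averaged 8.46, 8.68 and 9.34 in Control 1 to 3 and 8.42, 8.07 and 8.37 in DSS 1 to 3 on the log2 scale. Of these 8 markers 1 fell. Their part in the metabolic differences was not tested.

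**Figure D5:**
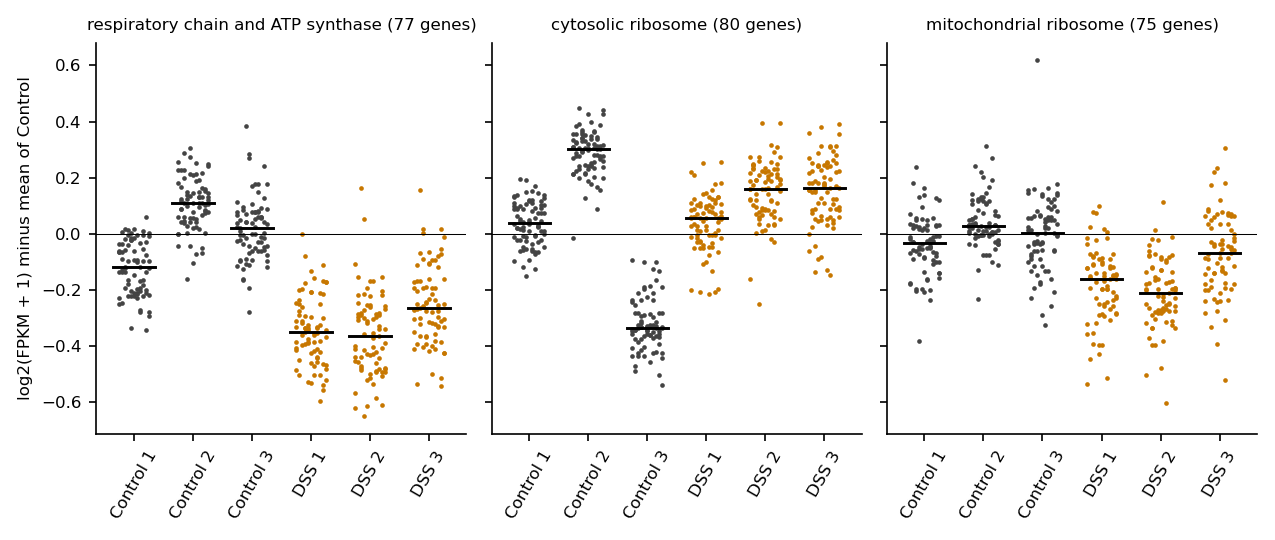
Level of each gene minus its mean in Control, in log2(FPKM + 1), for 77 genes of the respiratory chain and ATP synthase, 80 of the cytosolic ribosome and 75 of the mitochondrial ribosome. Each dot is a gene and the bar its library's median. The chain is lower in all 3 DSS libraries, while the cytosolic ribosome has its highest median in Control 2 and its lowest in Control 3.

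Nuclear respiratory factor 1 is a known activator of respiratory chain genes, so its core motif was looked up in their promoters. The letters GCGCATGC on either strand (GCATGCGC on the other, and overlapping matches on both strands are possible) occurred in the 250 bases before the start in 8 of 65 chain genes with a promoter (12.3%). The share was 2.56% of all 27025 genes with a promoter and 4.83% of the 10226 in this comparison. Atp5l, Cox6a1, Ndufa11, Ndufa8 and Sdhb, which fell, are printed here along their own strands with the motif in capitals, and Atp5g2, Atp5k and Ndufa6, which did not pass, also hold it. Positions in GRCm38.p6 are chr9:44920935-44920992 for Atp5l, chr5:115349073-115349160 for Cox6a1, chr17:56717662-56717749 for Ndufa11, chr2:36049339-36049386 for Ndufa8 and chr4:140961177-140961264 for Sdhb. Ndufa11 and Sdhb are on the plus strand and the others on the minus strand. Differences in the same order were -0.48, -0.37, -0.37, -0.33 and -0.38. Over all 77 chain genes, with or without the motif, 48 fell, and a link between motif and fall was not tested. Here too a match is not evidence of binding.
Atp5l: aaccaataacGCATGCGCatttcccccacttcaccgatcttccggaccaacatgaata
Cox6a1: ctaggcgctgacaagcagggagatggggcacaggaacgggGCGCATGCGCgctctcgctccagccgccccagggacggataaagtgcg
Ndufa11: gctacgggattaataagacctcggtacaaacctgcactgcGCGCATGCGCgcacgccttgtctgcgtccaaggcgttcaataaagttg
Ndufa8: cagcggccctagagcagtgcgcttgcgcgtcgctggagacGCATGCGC
Sdhb: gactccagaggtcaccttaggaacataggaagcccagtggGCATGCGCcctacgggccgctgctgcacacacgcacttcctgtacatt

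Muscle and nerve of the colon wall were lower. Of 42 genes of smooth muscle, enteric neurons and enteric glia 13 fell and 0 rose (median -0.41). Without Control 2, Control 3, DSS 1 or DSS 3 the count that fell was 7, 5, 6 or 1. In smooth muscle 7 of 19 fell. Mylk, the kinase that starts contraction, measured 79.9, 81.1 and 105 FPKM in Control and 61.7, 65.5 and 50.8 FPKM in DSS (-0.57 ± 0.14, adjusted p = 0.0116). Pln, phospholamban, a brake on the calcium pump of the sarcoplasmic reticulum, stood at 4.80, 7.11 and 9.98 FPKM in Control and 2.89, 2.70 and 2.17 FPKM in DSS (-1.17 ± 0.30, adjusted p = 0.0160), a call lost without Control 3 or DSS 3. The smooth muscle myosin gene Myh11 did not pass (302, 251 and 282 against 204, 244 and 162 FPKM, adjusted p = 0.0555). DSS 3 is the lowest library for all 3, and without it 0 of the 19 fell, against 4 without Control 3 or DSS 1. In enteric neurons 5 of 16 fell, with Snap25 of the synaptic release machinery at 8.66, 13.3 and 14.1 FPKM in Control and 6.87, 7.65 and 5.26 FPKM in DSS (-0.76 ± 0.17, adjusted p = 0.00861). Without Control 2, Control 3 or DSS 3, 1 of the 16 fell, with 2 without DSS 1, 3 without DSS 2, and 10 without Control 1. Sox10, a transcription factor of enteric glia, fell by 0.54 ± 0.15, the 1 of 7 glial genes to do so, and its call was lost in 4 of the 6 fits with a library left out. Fibroblast markers, at 4.25 to 4.93 in Control and 5.45 to 5.93 in DSS, and endothelial markers, at 2.08 to 2.26 and 3.03 to 3.18, moved the other way in the same libraries. Their part in the muscle and nerve values was not tested.

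The fixed list of interferon-induced genes gave few calls in limma. Of 24 measured, 0 rose and 1, Irf7, fell, and 19 had a difference below 0 (median -0.41). Isg15, a ubiquitin-like effector, stood at 73.4, 36.7 and 52.3 FPKM in Control and 22.2, 12.3 and 24.8 FPKM in DSS without passing (-1.41 ± 0.57, adjusted p = 0.0961). The DSS libraries lay below all Control libraries for Isg15 and for 8 other genes of the list. Irf7 kept its call in 2 of the 6 fits with a library left out. Outside the list, Ifitm1, an interferon-induced transmembrane protein gene, rose by 1.88 ± 0.41 (adjusted p = 0.00724), and Ifit1bl2 fell by 1.26 ± 0.29 (adjusted p = 0.0095), both in all 6 such fits. The interferon response element core, GAAANNGAAA on either strand (TTTCNNTTTC on the other), was found upstream of 9 of 18 list genes with a promoter (50.0%). The share was 3.46% of all genes with a promoter and 3.37% of those in this comparison. None of the 9 passed, and a match is not evidence of binding. The fixed list of MHC class I genes gave 0 of 12, with 8 below the Control range, for example H2-K1 at 599, 657 and 653 FPKM in Control and 425, 474 and 457 FPKM in DSS (adjusted p = 0.0797). H2-Q1, a class I gene outside that list with close paralogs, fell by 1.12 ± 0.25 (adjusted p = 0.00779), with 19.1, 14.4 and 31.2 FPKM in Control and 8.98, 9.18 and 8.58 FPKM in DSS.

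Genes of the circadian clock were mixed. Of 16 measured, 3 fell, Cry1 and Cry2 among them, and Nr1d1 rose. Cry2 kept its call in 1 and Nr1d1 kept its call in 4 of the 6 fits with a library left out. Cry1, a repressor of the circadian loop (gene ID 12952, chromosome 10, 85131700 to 85185054), measured 21.6, 23.7 and 17.8 FPKM in Control and 11.2, 9.90 and 10.8 FPKM in DSS (-0.91 ± 0.20, adjusted p = 0.00858). It lay at 4.46 to 10.8 FPKM in the 12 libraries from mice gavaged with bacteria. Nr1d1, which encodes REV-ERB alpha, stood at 4.48, 14.1 and 16.5 FPKM in Control and 30.2, 36.2 and 18.3 FPKM in DSS (1.32 ± 0.36, adjusted p = 0.0216), and at 34.7 to 80 FPKM in the other 12. Dbp, a clock output gene, was low in both groups, at 1.01 to 1.48 FPKM in Control and 1.08 to 3.04 FPKM in DSS, and reached 24.3 FPKM in the other 12, with a median of 13 FPKM. The labels give no time of day for tissue collection.

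Smaller lists had few calls. Secretory pathway genes of the endoplasmic reticulum rose in 6 of 22 and fell in 1 (median 0.27), with 3 that rose without Control 2, Control 3 or DSS 1 and 2 without DSS 3. Ern1, the stress sensor IRE1 alpha, measured 7.92, 6.19 and 6.70 FPKM in Control and 11.4, 11.8 and 11.6 FPKM in DSS (0.67 ± 0.10, adjusted p = 0.00128), while the stress-induced factor gene Ddit3 fell by 0.38 ± 0.09. Among 25 purine genes Paics, Atic and Entpd1 rose and Entpd5 and Entpd8 fell, with 9 that rose without Control 1 and 1 without Control 3, DSS 2 or DSS 3. Entpd1, the ectonucleotidase CD39 of endothelium and leukocytes, stood at 4.91, 3.49 and 2.00 FPKM in Control and 7.16, 9.22 and 7.98 FPKM in DSS (1.08 ± 0.21, adjusted p = 0.00483). Cndp2, a carnosine dipeptidase gene, was the 1 of 7 histidine and histamine genes that fell, from 32.1, 39.7 and 40.7 FPKM to 24.4, 25.7 and 23.8 FPKM. In tight junctions 3 of 16 genes fell (Cldn3, F11r and Cgn) and Tjp1 rose. Without DSS 1 or DSS 3 0 of the 16 fell, without Control 2 or Control 3 1 did, and Tjp1 lost its call without Control 3, DSS 1 or DSS 2. Lists for cholesterol synthesis, heat shock, immediate early genes, enteroendocrine cells, tuft cells and ErbB ligands gave 0 calls in limma with all libraries, while up to 4 genes of a list passed in 1 direction when a library was left out.

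Several further genes were named by the rules given below. Of these, Steap4, Mfsd2a, Slc4a11 and Apoe kept their calls in all 6 fits with a library left out. Steap4, a metalloreductase gene, measured 2.19, 3.66 and 3.41 FPKM in Control and 12.5, 19.8 and 17.4 FPKM in DSS (2.10 ± 0.31, adjusted p = 0.00119). Mfsd2a, a lysolipid transporter gene, lay at 1.56, 2.18 and 1.05 FPKM in Control and 8.83, 6.92 and 9.98 FPKM in DSS. In both the groups are several-fold apart. Slc4a11, a membrane transporter gene, was under 0.5 FPKM in Control and at 1.35, 3.18 and 1.23 FPKM in DSS, with DSS 2 the highest. Prss22, a serine protease gene, was likewise near 0 in Control and did not pass (adjusted p = 0.0584). It passed in 1 of the 6 fits with a library left out. It stood at 9.98 FPKM in DSS 2 and at 1.06 and 1.36 FPKM in DSS 1 and 3. Apoe, abundant in macrophages, stood at 218, 224 and 98.8 FPKM in Control and 372, 479 and 387 FPKM in DSS.

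Among genes that fell, Prss30, a serine protease gene, was even within groups, with 240, 217 and 233 FPKM in Control and 119, 124 and 117 FPKM in DSS (-0.93 ± 0.17, adjusted p = 0.00289). Slc9a3r1, the scaffold NHERF1 that anchors transporters in the brush border, stood at 131, 159 and 154 FPKM in Control and 81.4, 83.2 and 72.2 FPKM in DSS (-0.90 ± 0.16, adjusted p = 0.00268). Plk3, a stress-responsive kinase gene, fell by 1.11 ± 0.26. Several of the most abundant epithelial transcripts fell by less. Phgr1 fell by 0.78 ± 0.15, from 1162, 1682 and 2034 FPKM to 952, 908 and 898 FPKM, and the keratin gene Krt19 by 0.43 ± 0.13, a call kept in 2 of the 6 fits with a library left out.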

How the data were processed

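Total RNA of whole colon was read on the DNBSEQ platform, per the labels. The deposited values are FPKM, in a single table of 18349 genes (by NCBI gene ID) and 18 libraries, all mapped to samples. The build listed in the submitters' processing notes is mm10. How the authors aligned reads, computed FPKM or filtered genes is not given here. Symbols and coordinates came from RefSeq, GRCm38.p6, which matched 18230 identifiers. Libraries were grouped by their titles.

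The 13263 genes that reached 1 FPKM in 3 or more of the 18 libraries were tested on log2(FPKM + 1) with limma 3.58.1 in R 4.3.3. All 18 libraries entered a linear model of 5 groups with a mean-variance trend. The contrast was DSS minus Control, two-sided, with Benjamini-Hochberg adjustment over all genes tested, a threshold of 0.05 and no fold threshold. The script was tested on simulated data, where it recovered 84% of 2-fold and 62% of 1.5-fold changes among 13263 genes. It also made 10 false calls. Whether these shares hold for genes at low level or for the uneven libraries here was not tested.

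Genes were named by 5 rules. The first took genes called with each library left out, without overlap and with at least 5 FPKM in the higher group, 15 in each direction with the largest value of their smallest difference over those fits. Others took up to 8 genes in each direction that were under 0.5 FPKM in 1 group and at 1 FPKM or more in the other, the 8 in each direction with the largest difference in FPKM, up to 4 members of each of 72 lists, and the cell type markers. Further list members were named for their role, after their values were seen. The genes compared and the lists were chosen with earlier results of these data known.

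Alternatives were a pseudocount of 0.1, no filter or one of 5 FPKM, genes of the comparison only, the 6 libraries only, quantile, TPM or TMM scaling, array weights, robust variances, the replicate number as a block, removal of a length and GC trend, and libraries left out. Values of some list members are not reported here.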

Additional observations from a re-analysis of the deposited data

How the results depend on the processing

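Against 1485 genes that rose and 698 that fell, the 6 libraries alone gave 41 and 8, array weights 2399 and 1843, the fit without DSS 1 and DSS 3, the acinar-rich libraries, 470 and 81, the fit without squamous-rich libraries 187 and 88, and a difference of at least 1 gave 262 and 20. A minimum of 5 FPKM gave 945 that rose, of 9816 genes tested, and quantile normalization 914, while TMM factors gave 1068 that fell. With 1 of the 6 libraries left out, 784 to 2363 rose and 350 to 1225 fell. Fewer libraries enter several of these fits, and the cause of the other changes was not tested. Of 186 named genes called with all libraries, none changed direction under any of these settings. The call was kept by 138 to 178 with a library left out, 169 after quantile normalization, 62 without squamous-rich libraries and 22 with the 6 libraries alone. Many of these genes were named for their calls, and the first rule required calls in all 6 fits with a library left out. These counts are therefore no measure of stability. Of all 2183 genes called, 845 were called in each of those 6 fits. Of 73 list medians, with complexes I to V together as 1 list, 18 changed sign under at least 1 setting. Among named genes not called, the difference of Muc2 became 0.02 after quantile normalization, 0.63 with array weights and 0.26 without squamous-rich libraries, 0.78 without Control 3 and 0.26 without DSS 2, with a range of -0.61 to 0.78 over the 6 libraries left out in turn. That of Ly6g became -0.12 with array weights and -0.59 without Control 3 (range -0.59 to 3.03), and that of Cox7a2l -0.16 with array weights. Atp5g2 moved to 0.10 after quantile normalization, 0.02 in TPM, 0.09 with the length and GC trend removed, 0.05 without DSS 1 and DSS 3, 0.07 without Control 2 and 0.03 without DSS 1 (range -0.06 to 0.07). The read depth behind these FPKM is unknown, so no limit from counting can be given.

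Control and DSS share replicate numbers, and the few same-numbered pairs cannot show whether the numbers pair the libraries. Deviations of same-numbered libraries correlated at -0.25, 0.15 and 0.18, and those of other pairs at -0.29 to 0.30. With the replicate number as a block 1179 genes rose and 560 fell, and 170 of the 186 named genes kept their call.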
